A study of Mus musculus with 6 samples.

Results

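Wnt signalling was read here from 57 genes that make, release, bind or block Wnt proteins outside the cell or at its surface. A rule on gene symbols, with no limit on level, chose them: the Wnt ligands, the secretion factors Porcn and Wls, the Frizzled receptors, the co-receptors Lrp5 and Lrp6, the alternative receptors Ror1, Ror2 and Ryk, the R-spondins with their Lgr receptors, the ubiquitin ligase Rnf43, and the secreted or membrane inhibitors of the Sfrp, Dickkopf, Wif1, Kremen, Notum and Apcdd1 type. These 57 stand among 22001 symbols on rows that name a single gene. Of 60 symbols looked for, Kremen1 and Znrf3 shared 1 row and Sfrp3 stands in the table under its mouse symbol Frzb, so these were not counted as members.

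The tissue was mammary tumor epithelium of FVBN females aged 7 weeks that carry PyMT, the polyoma middle T oncogene. Labelled groups are 3 PyMT control tumors and 3 PyMT Elp3 cKO tumors, the latter with MMTV-CRE, a recombinase under a viral promoter that is active in mammary epithelium. Each tumor came from a different mouse, tumors were matched for size, and epithelial cells were enriched before polyA RNA was sequenced. Nothing used here says whether control mice carried Cre or a floxed Elp3 allele. Levels are in FPKM, fragment counts scaled by the authors to transcript length and to library size.

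The same-numbered columns of both genotypes are equal in all 24308 rows, while columns of different number differ in every row above 0. The table thus holds 3 distinct profiles, each under both labels, so the response of Wnt genes to Elp3 deletion was not measurable from it. Values are given for profiles 1, 2 and 3, without a test between genotypes. No mean or SD per genotype is given, since no profile can be placed in 1 group. FPKM summed to between 621793 and 636842 per profile, and the read depth behind a value is unknown. The epithelial keratins Krt8 and Krt18 stood at 3060 FPKM or more in every profile, and all 8 epithelial markers were above 1 FPKM. Fibroblast markers were detected as well and varied: all 15 were lowest in profile 1, and their summed level was 109, 256 and 385 FPKM in profiles 1, 2 and 3. Profile 3 also carried salivary genes, with a summed level of 1004 FPKM over 9 markers against 1.33 in each of the others. In bulk RNA, fewer cells of a type and less RNA per cell cannot be told apart.

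Wnt proteins are lipid-modified by Porcn, a membrane-bound acyltransferase of the endoplasmic reticulum, and carried to the surface by Wls. In the canonical branch they bridge a Frizzled receptor and Lrp5 or Lrp6, which stabilises beta-catenin and lets it act with TCF/LEF factors on target genes. Other Wnts act through Ror or Ryk receptors on cell shape and polarity. R-spondins bind Lgr receptors and clear Rnf43 and Znrf3, which otherwise remove Frizzled from the surface. In the mammary gland, Wnt4 is induced by progesterone in hormone-sensing cells, and Wnt1 was found as a site of mouse mammary tumor virus insertion in mammary tumors.

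Most of the ligand transcript came from few genes, so promoters are shown for the highest ligand, Frizzled receptor and Dickkopf-related gene that had an entry in the RefSeq promoter table (GRCm38.p6). The windows run from 250 bases before to 50 bases after an annotated start. Capitals mark the GC box GGGCGG, the core of sites bound by Sp-family factors, and the TCF/LEF core CTTTGAT, each on either strand. Wnt5b, on the minus strand of chromosome 6, has 3 annotated starts, of which the distal and the proximal one are shown.
Wnt5b distal start, chr6:119544298-119544597: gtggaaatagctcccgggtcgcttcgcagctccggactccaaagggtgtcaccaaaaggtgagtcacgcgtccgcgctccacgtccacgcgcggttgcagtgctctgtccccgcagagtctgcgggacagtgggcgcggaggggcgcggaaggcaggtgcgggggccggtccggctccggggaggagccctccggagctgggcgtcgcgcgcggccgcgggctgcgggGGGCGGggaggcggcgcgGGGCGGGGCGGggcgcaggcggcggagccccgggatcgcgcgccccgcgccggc
Wnt5b proximal start, chr6:119449337-119449636: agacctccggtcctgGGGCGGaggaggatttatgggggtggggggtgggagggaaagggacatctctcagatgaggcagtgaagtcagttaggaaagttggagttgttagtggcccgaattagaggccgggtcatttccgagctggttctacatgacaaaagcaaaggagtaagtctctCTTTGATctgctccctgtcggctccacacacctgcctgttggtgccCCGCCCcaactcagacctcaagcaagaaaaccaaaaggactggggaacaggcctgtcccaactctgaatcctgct
Fzd7, plus strand, chr1:59481897-59482196: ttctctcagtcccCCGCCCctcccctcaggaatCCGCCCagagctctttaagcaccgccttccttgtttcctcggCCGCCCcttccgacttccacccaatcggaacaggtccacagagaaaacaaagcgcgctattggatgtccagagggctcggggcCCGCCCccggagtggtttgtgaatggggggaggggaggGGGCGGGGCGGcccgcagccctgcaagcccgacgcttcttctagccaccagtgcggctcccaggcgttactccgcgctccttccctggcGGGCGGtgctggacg
Dkkl1, minus strand, chr7:45211834-45212133: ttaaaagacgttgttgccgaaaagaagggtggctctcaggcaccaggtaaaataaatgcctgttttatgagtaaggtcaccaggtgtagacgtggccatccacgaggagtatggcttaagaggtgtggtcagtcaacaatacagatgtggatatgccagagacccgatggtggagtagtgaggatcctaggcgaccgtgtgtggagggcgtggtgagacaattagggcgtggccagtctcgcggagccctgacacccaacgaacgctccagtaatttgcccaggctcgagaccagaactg
The distal Wnt5b window held 47 CpG dinucleotides and 3 GC boxes, some of them overlapping, and the proximal one 7 CpG, 2 GC boxes and 1 TCF/LEF core. The Wnt5b window between them, not shown, held 4 CpG and no match to either motif. Fzd7 held 24 CpG and 7 GC boxes, and Dkkl1 14 CpG with no match to either motif. Over all 41 windows of the 37 members in the table the median was 24 CpG, against 7 over all 32851 windows. A GC box stood in 70.7% of member windows and 35.7% of all windows. The TCF/LEF core was found in 2 member windows, at Wnt5b and Wnt11, or 4.88% against 3.73% of all windows. By level, the median CpG count was 23 in 21 windows of members at 1 FPKM or more and 26.5 in 20 windows of members under it. These matches describe letters in the windows, and which start was used in the tumors was not measured here.

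By the share at 1 FPKM or more the set was close to all symbols, but its medians and its share listed at 0 differed from theirs. A mean of 1 FPKM or more was reached by 28 of 57 members, or 49.1%, against 49.0% of all symbols, and the median member stood at 0.449, 0.779 and 1.12 FPKM in profiles 1, 2 and 3, against 0.745, 0.826 and 0.822 for all symbols. Members listed at 0 in all profiles were Wnt3, Wnt3a, Rspo2, Dkk1 and Dkk4, 5 of 57, where 27.0% of all symbols were. Around the limit of 1 FPKM, Wnt7a and Fzd9 lay just inside with means of 1.06 FPKM each, and Wnt4 and Sfrp4 just outside at 0.688 and 0.610 FPKM. The levels differed by role: 9 of 10 Frizzled receptors and 4 of 5 co-receptors and alternative receptors passed, but 6 of 19 ligands and 0 of 4 R-spondins.

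**Figure D1:**
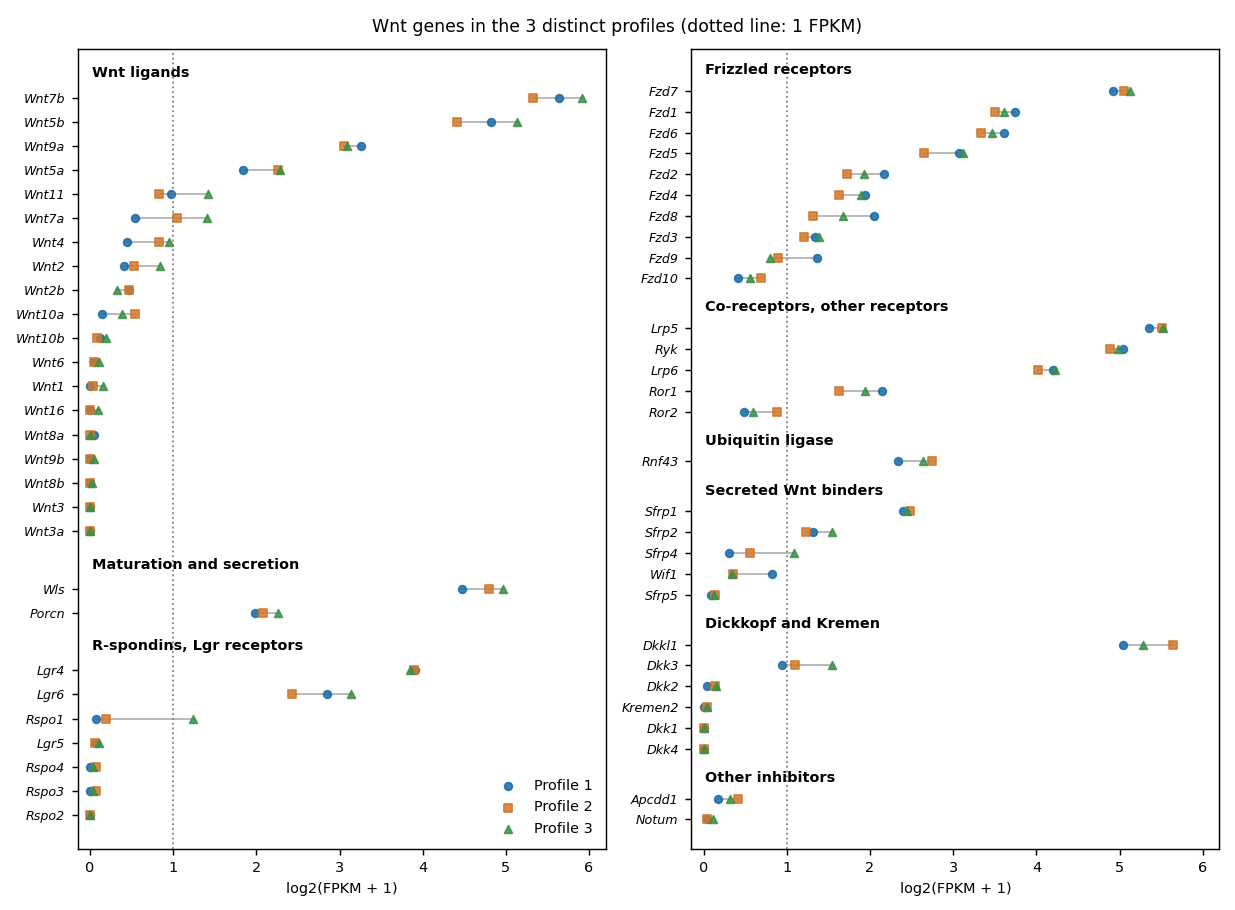
Level of each of the 57 Wnt genes as log2(FPKM + 1), grouped by role, with 1 symbol per profile and a grey line over their range. Wnt7b, Lrp5, Dkkl1 and Fzd7 lead their groups, and most ligands and all R-spondins but Rspo1 in profile 3 lie left of the dotted line at 1 FPKM.

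Wnt7b was the leading ligand in every profile and the highest member of the set by mean, although Dkkl1 and Lrp5 were above it in profile 2. Its row at chromosome 15, 85535437 to 85593708 (mm10), stood at 48.9, 39.2 and 59.5 FPKM, above 92.5% of all symbols by mean. Wnt5b, a ligand of the non-canonical class, followed at 27.3, 20.3 and 34.0 FPKM. Both were lowest in profile 2 and highest in profile 3, and the ratio of Wnt7b to Wnt5b held between 1.75 and 1.93. Together they made up 84.6%, 79.7% and 84.3% of the summed ligand FPKM, which was 90.1, 74.7 and 111 FPKM. The range of Wnt7b did not overlap that of Wnt5b. Of the 4613 annotated exonic bases of Wnt7b, 236 are shared with the antisense gene AU022754, whose own row had a median of 0.224 FPKM. The Wnt5b row has the same coordinates as that of Fbxl14, a gene inside it with no shared exon and a median of 8.48 FPKM.

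Wnt9a was the third ligand, at 8.54, 7.30 and 7.53 FPKM, and with it the top 3 held between 89.5% and 94.1% of ligand FPKM. Wnt5a, which signals through Ror receptors in many tissues, stood at 2.57, 3.80 and 3.88 FPKM, the low value being that of profile 1. Wnt11 had 0.964, 0.779 and 1.68 FPKM, and Wnt7a, the paralog of Wnt7b, had 0.449, 1.07 and 1.66 FPKM. These paralog pairs were apart in level: Wnt7b exceeded Wnt7a by 35.9 to 109 times and Wnt5b exceeded Wnt5a by 5.35 to 10.6 times within a profile. Wnt7a had the widest range of the 28 members above 1 FPKM, 0.87 on the log2(FPKM + 1) scale.

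**Figure D2:**
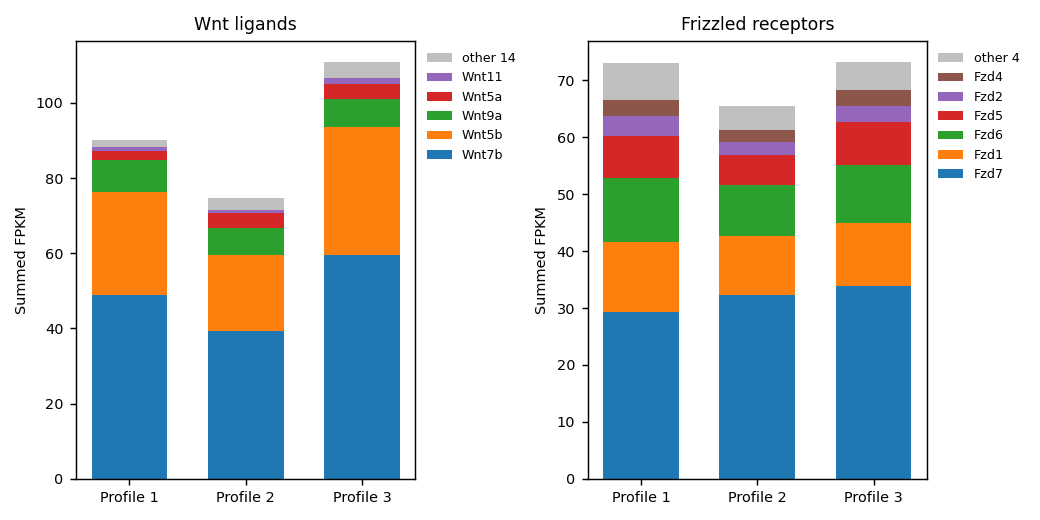
Summed FPKM of the 19 Wnt ligands (left) and the 10 Frizzled receptors (right) in each profile, stacked by gene, with the remaining genes in grey. Wnt7b and Wnt5b fill between 79.7% and 84.6% of the ligand bars, and Fzd7 between 40.1% and 49.2% of the Frizzled bars.

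The classical mammary Wnt genes were low. Wnt4 stood at 0.365, 0.770 and 0.930 FPKM, and in the same bulk profiles the progesterone receptor gene Pgr had 1.57, 3.17 and 3.58 FPKM. Wnt1 was listed at 0, 0.0261 and 0.112 FPKM, and Wnt10b, next to it on chromosome 15, at 0.0832, 0.0560 and 0.144 FPKM. Both Wnt4 and Pgr were lowest in profile 1 and highest in profile 3. Of the hormone-sensing markers, of which Pgr is one, 6 of 8 were lowest in profile 1 and 6 of 8 highest in profile 3. Their sum was 262, 297 and 429 FPKM, but it was led by Ly6a, at 179, 225 and 362 FPKM. Areg, the next highest, ran the other way, at 73.3, 57.3 and 48.3 FPKM. Fibroblast markers were also lowest in profile 1 and highest in profile 3 by sum, with 10 of 15 highest in profile 3. Of all symbols at 1 FPKM or more, 40.1% were lowest in profile 1 and 36.5% highest in profile 3. With no minimum level, 27.6% were lowest in profile 1. The part of either list in the Wnt4 level was not tested. Wnt2 had 0.327, 0.444 and 0.787 FPKM, overlapping its paralog Wnt2b at 0.387, 0.385 and 0.248, and Wnt10a 0.1004, 0.451 and 0.303. Wnt6, Wnt8a, Wnt8b, Wnt9b and Wnt16 reached at most 0.0781 FPKM in any profile, and Wnt3 and Wnt3a were listed at 0.

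Neighbouring ligand genes had unlike levels at 1 locus. Several Wnt ligand genes lie in pairs, and 4 pairs in the table are under 25 kb apart, the widest gap being 24.4 kb between Wnt9b and Wnt3. On chromosome 11, Wnt3a (59248042 to 59290751) was listed at 0 in all profiles, while Wnt9a (59306877 to 59333552), 16.1 kb further on, had a median of 7.53 FPKM. At the other pairs neither gene reached 1 FPKM: the medians were 0.0305 for Wnt6 and 0.303 for Wnt10a on chromosome 1, and 0.0832 for Wnt10b and 0.0261 for Wnt1. Wnt9b and Wnt3 both had a median of 0.

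The secretion machinery was present. Wls, the carrier that takes acylated Wnts to the surface, stood at 21.2, 26.9 and 30.1 FPKM. Porcn, the acyltransferase, was lower at 2.96, 3.21 and 3.79 FPKM. Both were lowest in profile 1 and highest in profile 3, and Wls exceeded Porcn by 7.15 to 8.37 times within a profile.

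Fzd7 was the leading Frizzled, the family of membrane receptors for Wnts. It stood at 29.3, 32.3 and 33.8 FPKM and held 40.1%, 49.2% and 46.1% of the summed Frizzled FPKM. Fzd1, at 12.3, 10.3 and 11.2 FPKM, and Fzd6, at 11.2, 9.05 and 10.1 FPKM, came next; their ranges overlapped, although Fzd1 was the higher of the pair in each profile. Fzd6 acts in planar polarity of the skin in mice. Fzd5 had 7.39, 5.29 and 7.70 FPKM, and 1233 of its 6915 annotated exonic bases are shared with an antisense gene, Gm38058, from which unstranded reads cannot be told apart.

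The other Frizzleds formed a low tier. Fzd2 stood at 3.50, 2.29 and 2.81 FPKM, Fzd4, which is also the receptor for norrin in blood vessels, at 2.83, 2.08 and 2.72 FPKM, and Fzd8 at 3.13, 1.48 and 2.20 FPKM. Fzd3 had 1.53, 1.31 and 1.61 FPKM, Fzd9 had 1.57, 0.861 and 0.738, and Fzd10 had 0.335, 0.612 and 0.472, below the limit in all profiles. Of the 9 Frizzleds that passed, 7 were lowest in profile 2, the exceptions being Fzd7 and Fzd9. Of all symbols at 1 FPKM or more, 28.3% were lowest in that profile. The epithelial markers gave no single order: 5 of 8, among them Epcam and Cldn4, were lowest in profile 2, where their median was 563 FPKM against 726 in profile 1 and 652 in profile 3, but their sum, led by the keratins, was lowest in profile 1, at 11005, 11037 and 11585 FPKM. Their part in the order of the Frizzleds was not tested.

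Co-receptors were among the most abundant members. Lrp5 stood at 39.8, 44.6 and 44.8 FPKM and Lrp6 at 17.3, 15.2 and 17.7 FPKM. Their ranges did not overlap, and Lrp5 exceeded Lrp6 by 2.29 to 2.94 times. Ryk, a kinase-related Wnt receptor without known kinase activity, had 32.0, 28.6 and 30.7 FPKM. The Ror receptors, which bind Wnt5a, were low: Ror1 had 3.40, 2.09 and 2.83 FPKM and Ror2 had 0.393, 0.845 and 0.502 FPKM. Ror1 was the higher in every profile, by 2.48 to 8.65 times.

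Receptors for R-spondins were expressed with little R-spondin. Lgr4 stood at 13.96, 13.9 and 13.4 FPKM and had the narrowest range of the 28 members above 1 FPKM, 0.06 on the log2(FPKM + 1) scale. Lgr6 had 6.18, 4.37 and 7.82 FPKM. Lgr5, a stem cell marker of several epithelia, was at most 0.0759 FPKM, under Lgr4 by 176 to 367 times. Rspo1 had 0.0543, 0.139 and 1.37 FPKM, so that only profile 3 was above 1 FPKM. That profile also carried the salivary genes, among them Smr3a at 0.615, 0.239 and 561 FPKM, and its fibroblast markers had the highest sum; their part in the Rspo1 level was not tested. Rspo3 and Rspo4 were at most 0.0523 FPKM and Rspo2 was listed at 0. Rnf43, the ubiquitin ligase that removes Frizzled, stood at 4.04, 5.72 and 5.21 FPKM. The row naming both Kremen1, a Dickkopf receptor, and Znrf3, the partner ligase of Rnf43, had 12.8, 14.2 and 15.3 FPKM, which cannot be divided between them.

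Among inhibitors, Dkkl1 stood out. It encodes a Dickkopf-related secreted protein best known from testis, and it is not established as a Wnt antagonist in the way that Dkk1 is. Its level was 31.9, 48.9 and 38.0 FPKM, above 90.5% of symbols, and profile 2 was the highest. Its annotated exons overlap those of no other gene. Of the Dickkopfs proper, Dkk3 had 0.911, 1.13 and 1.90 FPKM, Dkk2 was at most 0.111 FPKM, and Dkk1 and Dkk4, which bind Lrp5 and Lrp6, were listed at 0. Kremen2 was at most 0.0296 FPKM.

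Secreted Frizzled-related proteins were modest. Sfrp1 stood at 4.25, 4.599 and 4.43 FPKM and Sfrp2 at 1.48, 1.35 and 1.92 FPKM, with no overlap between their ranges. Of the 2003 annotated exonic bases of Sfrp2, 347 are shared with the antisense gene Gm26771. Sfrp4 had 0.238, 0.472 and 1.12 FPKM, in the order of the summed fibroblast markers, an order that Wls and Porcn also had. The part of fibroblasts in the Sfrp4 level was not tested. Sfrp5 was at most 0.09998 FPKM. Wif1, which binds Wnts directly, had 0.766, 0.278 and 0.263 FPKM. Notum, the enzyme that removes the lipid from Wnts, was at most 0.0801 FPKM, and Apcdd1 had 0.123, 0.328 and 0.244 FPKM.

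The range over the profiles had a median of 0.43 on log2(FPKM + 1) for the 28 members at 1 FPKM or more, against 0.27 for all symbols at that level. A range of 1 or more was found in 0 of 28 members and in 3.65% of symbols, a count near that share. Next to Wnt7a, the widest ranges belonged to Fzd8 at 0.73, Lgr6 at 0.72 and Wnt5b at 0.71. The scale understates changes of low genes: with 0.1 added in place of 1, 3 of 28 members (Wnt7a, Fzd8 and Wnt11) spanned 1 or more, against 6.16% of symbols. Below the limit, Rspo1 spanned 1.17.

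**Figure D3:**
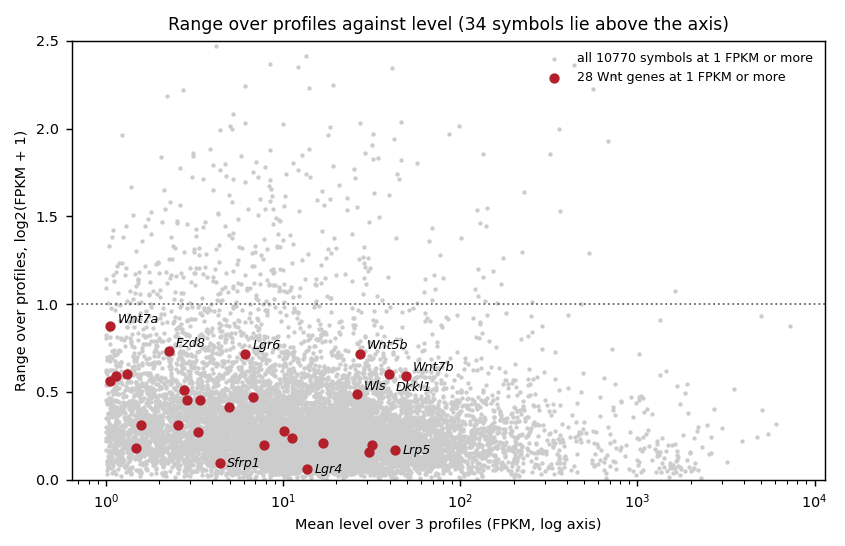
Range over the 3 profiles on log2(FPKM + 1) against mean FPKM on a log axis, for all symbols at 1 FPKM or more (grey) and the 28 Wnt genes among them (red). All red points lie under the dotted line at 1, and Wnt7a is the highest of them at 0.87.

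The profiles did not all have the same order. Of the 28 members, 16 were lowest in profile 2, against a background of 28.3%, 10 were lowest in profile 1, against 40.1%, and 2 (Fzd9 and Lgr4) were lowest in profile 3, against 31.5%. Highest in profile 3 were 15 of 28, against 36.5%. By role, 4 of 6 ligands, 7 of 9 Frizzleds and 3 of 4 co-receptors and alternative receptors were lowest in profile 2. Outside the set, counted at any level, 14 of 29 cytoplasmic transducers and 7 of 12 nuclear factors were lowest in profile 2. So were 6 of 18 further extracellular, 4 of 16 target and 4 of 13 planar polarity genes. Of the markers, 5 of 8 epithelial, 5 of 7 myeloid and 3 of 7 luminal progenitor genes were. Of basal, hormone-sensing, fibroblast and endothelial markers, 0 were. These list counts have no like share beside them, because the 28.3% covers only symbols at 1 FPKM or more. For profile 1, the share of symbols was 40.1% at that level and 27.6% with no minimum. Besides the Frizzleds, members lowest in profile 2 included Wnt7b, Wnt5b, Wnt9a, Lrp6, Ryk, Ror1 and Lgr6. Those lowest in profile 1 were Wnt5a, Wnt7a, Wls, Porcn, Fzd7, Lrp5, Rnf43, Sfrp1, Dkk3 and Dkkl1. The fibroblast markers were lowest in that profile as well, and 14 of 15 spanned 1 or more, for example Dcn, a matrix proteoglycan, at 18.2, 54.4 and 66.8 FPKM, and Postn, another matrix protein, at 13.05, 40.7 and 70.3 FPKM. Basal and myoepithelial markers were lowest in profile 1 in 8 of 10 cases. Of the 10, 5 spanned 1 or more: Acta2, smooth muscle actin, at 18.5, 34.3 and 74.0 FPKM, and Tagln, Cnn1, Myh11 and Oxtr. The keratins and Trp63 had other orders. Krt14 and Trp63 were lowest in profile 3, and Krt5 and Krt17 were highest in profile 2. The sum of the list was also highest in profile 2, at 534, 688 and 645 FPKM. Hormone-sensing markers were lowest in profile 1 in 6 of 8 cases. Endothelial markers ran the other way, with sums of 37.2, 34.6 and 15.7 FPKM. The part of these cell type markers in the Wnt genes' order was not tested. With profile 2 left out, 18 of 28 members were lower in profile 1 than in profile 3, against 52.7% of symbols. With profile 3 left out, 9 of 26 were lower in profile 1 than in profile 2, against 52.6%.

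**Figure D4:**
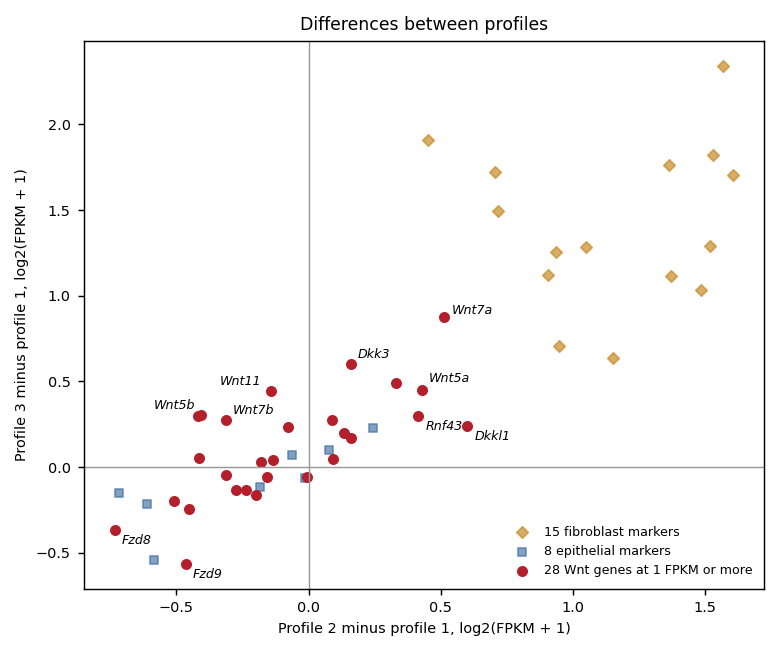
Difference of profile 2 from profile 1 (horizontal) and of profile 3 from profile 1 (vertical) on log2(FPKM + 1), for the 28 Wnt genes at 1 FPKM or more, 15 fibroblast markers and 8 epithelial markers; profile 1 enters both axes. All fibroblast markers lie in the upper right, and the Wnt genes lie closer to zero, with Wnt7a the farthest upper right among them and Fzd8 the farthest left.

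Inside the cell the pathway's transducers were abundant, while its target and feedback genes reached 1 FPKM about as often as all symbols did. Of 29 cytoplasmic transducers, 25 were at 1 FPKM or more, against 49.0% of all symbols. Their median was 21.0 FPKM (18.7 to 21.9 over profiles). Ctnnb1, beta-catenin, stood at 225, 248 and 244 FPKM and Csnk1a1, the casein kinase that primes it for degradation, at 205, 203 and 207 FPKM. Ctnnb1 also works at cell junctions, so its RNA level does not report signalling. None of the 29 spanned 1 or more between profiles, a count near the 3.65% of symbols at 1 FPKM or more that did.

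Nuclear factors passed in 10 of 12 cases, against 49.0% of all symbols, with a median of 7.16 FPKM (5.35 to 8.04). The co-repressor Tle3 had 30.8, 26.7 and 30.7 FPKM and the co-activator Bcl9l had 20.5, 24.8 and 23.0 FPKM. Of the TCF/LEF factors, Tcf7 stood at 7.98, 6.46 and 9.13 FPKM, Tcf7l1 at 8.46, 5.22 and 9.03, and Tcf7l2 at 6.53, 5.44 and 7.04. These 3 were lowest in profile 2, as Wnt7b and Wnt5b were. The study's title gene Lef1 reached 0.0216 FPKM in profile 3, with 0 listed for the other two.

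Targets and feedback genes outside the set reached 1 FPKM in 7 of 16 cases, near the share of all symbols, 49.0%. Their median was 0.808 FPKM (0.6001 to 0.932). Tcf7 and Lef1 are counted both here and among the nuclear factors. Axin2, the most general feedback target of canonical signalling, was at 0.128, 0.200 and 0.233 FPKM, and Nkd1, an inhibitor of Dishevelled, at 0.182, 0.239 and 0.618 FPKM. Others of the list were higher: Nkd2 stood at 8.18, 6.64 and 9.33 FPKM, Tcf7 at 7.98, 6.46 and 9.13, and Procr at 45.3, 64.3 and 78.5. The target genes with the highest means, Myc at 130, 97.0 and 99.2 FPKM and Cd44 at 95.2, 86.3 and 84.8 FPKM, respond to many other pathways too. Within the set itself, the target genes Lgr5, Notum and Dkk1 were each under 0.1 FPKM, while Rnf43, also a target in intestine, was at 4.04 FPKM or more.

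Genes of planar polarity passed in 10 of 13 cases, against 49.0% of all symbols, with a median of 3.46 FPKM (3.002 to 4.005). Ptk7, a Wnt co-receptor-like protein also counted among extracellular genes, had 47.6, 50.8 and 60.6 FPKM, and Daam1, a formin that links Dishevelled to actin, had 33.7, 27.5 and 27.9 FPKM. Of 18 further extracellular Wnt genes 8 passed, near the share of all symbols, led by Ptk7 and by the glypican Gpc1 at 23.4, 29.5 and 31.4 FPKM. Frzb, the mouse symbol for Sfrp3 and so outside the symbols looked for, was listed at 0, 0 and 0.0538 FPKM.

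**Figure D5:**
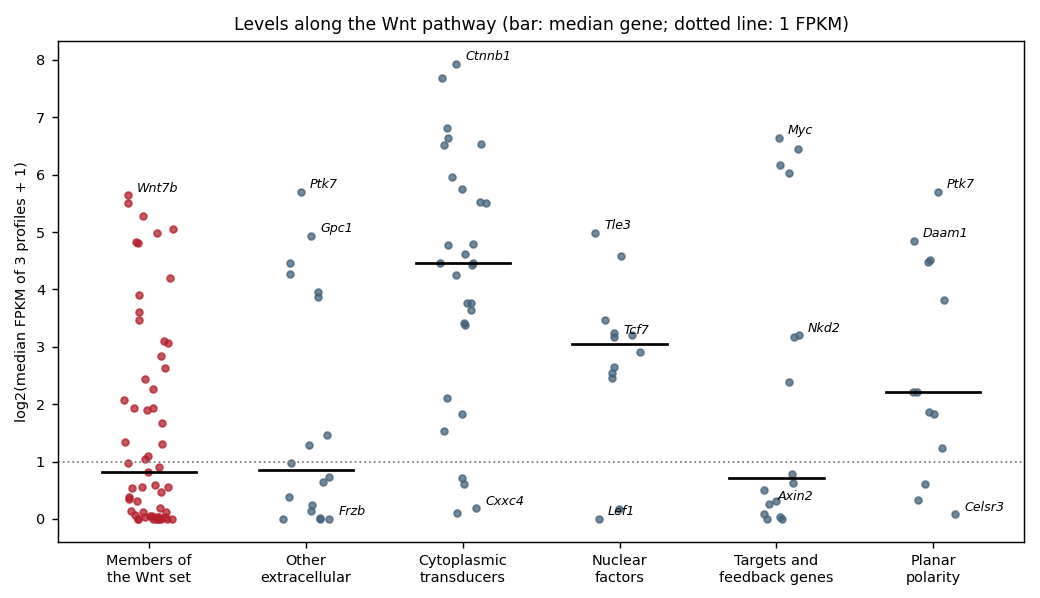
Median level over the 3 profiles, as log2(FPKM + 1), of each Wnt gene (red) and of the genes of 5 further lists along the pathway (blue), with a bar at the median gene. Ctnnb1 and other transducers lie highest, and Axin2 and Lef1 lie near the bottom of their groups.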

How the data were processed

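PolyA RNA of epithelial cells from 6 tumors was sequenced. The submitters' processing notes name TopHat2 2.0.9, Cufflinks 2.1.1, Cuffdiff and mm10; how each was used was not stated there. The authors deposited FPKM per gene and a summary column of FPKM. The library kit is not described as keeping strand. Each sample column was matched to a sample title. A limma test between genotypes had been foreseen only if their columns differed, which they did not.

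Members were found by symbol on rows naming 1 gene. All 57 had 1 row; for the 318 other symbols with several, the row of highest mean was taken. Starts were raised by 1, after which 22 of 57 equalled the RefSeq start. Exon overlap came from GENCODE (GRCm38), where 49 of 57 members share no exonic base with another gene. The others, Wnt7b, Wnt11, Fzd5, Fzd6, Rspo3, Sfrp2, Kremen2 and Notum, share bases with genes on the opposite strand.

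Named were all members with a mean of 1 FPKM or more, lower members in groups, and from other pathway lists the 2 genes of highest mean plus Axin2, Nkd1, Lef1, the TCF genes and Ctnnb1. Pgr, Smr3a, Acta2, Epcam, Cldn4 and the genes of the closing part were named beside a value after it was seen. So were Ly6a, Areg, Nkd2, Procr and further basal and myoepithelial markers. Members and lists were chosen with earlier results of these data known. Of all symbols, 49.0% reached a mean of 1 FPKM or more. In the other marker lists, 9 of 10 basal, 7 of 8 hormone-sensing, 7 of 7 luminal progenitor and 7 of 8 endothelial genes reached it. So did 3 of 7 myeloid, 0 of 8 lymphocyte and 0 of 5 adipocyte genes. The counting was tested on simulated data. Alternatives tried were another scaling (median ratio or quantile), other minimum levels, a smaller pseudocount, summed rows and fewer profiles. Tools were Python 3.11.15, pandas 2.3.3, numpy 2.4.6 and matplotlib 3.10.9. The read depth is unknown, and no interval that needs it is given.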

Additional observations from a re-analysis of the deposited data

Results flagged for a closer look

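A signal stood in the authors' summary column, which no comparison above uses. For 4 of 57 members the authors' deposited table gives a summary of 1 FPKM or more that is over 2 times the highest of the 3 profiles, where 0.618% of 22001 symbols do so. The summary was 8.29 FPKM for Wnt5a, against at most 3.88 FPKM in a profile. For Wnt4 it was 2.92 FPKM against at most 0.930, for Fzd10 2.72 FPKM against at most 0.612, and for Wnt10a 1.002 FPKM against at most 0.451. The column is headed Total de FPKM, and nothing used here says how it was made. A mean over the sample columns cannot exceed the highest of them. If the summary is a mean, it draws on values that the sample columns do not show.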

How the results depend on the processing

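No paired analysis was possible because each replicate number holds equal values under both genotypes, and the replicate block was not run. Of 38 recomputed values of the 5 summary results (the counts at 1 FPKM or more, spanning 1 or more and lowest in profile 1, the median level and the summed ligand level), 33 stayed within 1.5 times or 1 SD of the profiles. The count of members spanning 1 or more was 0, and 1 (Rspo1) both with a minimum mean of 0.5 FPKM and with no minimum, and 3 with a pseudocount of 0.1, where 6.16% of symbols span as much. Lowest in profile 1 were 10 of 28 members, 25 of 57 with no minimum (27.6% of all symbols), and between 9 and 18 without replicate 3 or 2 (52.6% and 52.7% of symbols), where only 1 other profile remains; without replicate 1 it has no value. The count at 1 FPKM or more lay between 22 and 33 over all alternatives. All 168 recomputed medians of single members stayed within 1 SD of the profiles, 56 of them under another scaling. A median of 3 values cannot move by more when a profile is left out. The same holds for the median level and the summed ligand level, each a median over profiles. Summing the rows of a symbol could change no value, because all 57 members had 1 row. Settings fixed in these ways are counted in the 33 and the 168.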

Other observations

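The summary column can be read by arithmetic. Times 9, it ends at 4 decimals in 85.4% of the 6491 rows examined, while other multipliers up to 12 gave 28.5% or less. If it is a mean over 9 values that holds each profile 2 times, 3 values per row are not shown. Their sum then came out below 0 in 0 of 24308 rows. Which samples these values belong to is not known, and the reading was not tested further.

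On that reading, the Wnt genes of the values not shown had another makeup, given here from the authors' deposited table as implied means. Wnt5a would stand at 18.04 FPKM against a mean of 3.42 in the profiles, Wnt4 at 7.37 against 0.688, Fzd10 at 7.23 against 0.473 and Wnt10a at 2.44 against 0.285. Rspo1 would stand at 3.68 FPKM against 0.520, Dkk3 at 6.82 against 1.32, Porcn at 10.9 against 3.32 and Ror2 at 3.16 against 0.580. Lower would be Dkkl1, at 18.6 FPKM against 39.6, Wnt9a at 3.48 against 7.79, Sfrp1 at 1.66 against 4.42, Ror1 at 0.853 against 2.78 and Wnt7a at 0.0751 against 1.06. Wnt7b, at 41.4 against 49.2 FPKM, and Wnt5b, at 31.7 against 27.2, would still be the highest ligands. Of the 28 members at 1 FPKM or more, 9 had a summary above and 2 a summary below all 3 profiles, against 15.6% and 17.6% of symbols at that level. All genes in this paragraph were picked after their values were seen.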
